A study of Chlorocebus aethiops with 12 samples.

Results

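Hydroxysteroid dehydrogenases interconvert the hydroxyl and keto forms of steroids, and so decide whether a steroid is held in a form that its receptor binds. HSD17B3, the enzyme of testicular Leydig cells that reduces androstenedione to testosterone, and its relatives are described here in COS-1 cells, a fibroblast-like kidney line of the African green monkey. The genes were chosen by the rise of HSD17B3 with dexamethasone measured on these same arrays, as HSD17B3 and its relatives. They comprise the 9 human RefSeq accessions of HSD17B3, HSD17B1, HSD17B2, HSD17B4, HSD17B6, HSD17B7, HSD11B1 (in 2 variants) and HSD11B2, and their probes were found by matching these accessions to the probe annotation of the arrays. Of the 9, 8 were found among the 32379 accessions of the arrays, with 10 probes in all, and 1 HSD11B1 variant (NM_005525) was not analysed here. Of the 8, 7 passed the filter on dim probes.

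RNA came from 4 groups of 3 biological replicates. GR+MDFIC Dex cells were transfected with the glucocorticoid receptor (GR) and MDFIC and treated with 100 nM dexamethasone (Dex) for 6 h, and GR+MDFIC vehicle cells received vehicle. GR Dex and GR vehicle cells were transfected with GR alone and treated in the same ways. All 4 groups thus carried transfected GR, and treatment began 48 h after transfection, in medium with charcoal-stripped serum. The cells were transfected with FuGENE6, and the share of cells that took up a construct was not measured here. GR is a transcription factor activated by glucocorticoids, Dex is a synthetic glucocorticoid, and MDFIC is the MyoD family inhibitor domain containing protein. The study asked what MDFIC does to the transcripts that Dex moves through GR.

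The HSD17B enzymes act on sex steroids and, in several cases, on fatty acids or sterol intermediates, and the HSD11B enzymes act on glucocorticoids. HSD11B1 makes cortisol from cortisone, and HSD11B2 oxidises cortisol to cortisone, which in the kidney keeps cortisol from occupying the mineralocorticoid receptor. Levels are given as log2 of the processed signal relative to the 75th percentile of the same array, so that a level of 0 equals that percentile. Each level belongs to its own probe, and levels of different probes cannot be compared. The probes were designed for human transcripts and met monkey RNA, whose part in a low signal was not tested. In RNA from a whole culture, fewer cells with a transcript and less transcript per cell cannot be told apart.

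Each array had 43376 non-control spots, of which 70.3% to 75.2% were well above background, and the number of arrays limits the precision. The arrays lay on 3 slides. Slide 1 held the 3 GR vehicle replicates and GR Dex replicate 1, slide 2 held GR Dex replicates 2 and 3 and GR+MDFIC vehicle replicates 1 and 2, and slide 3 held GR+MDFIC vehicle replicate 3 and the 3 GR+MDFIC Dex replicates. Slide 3 stood apart, with a 75th percentile signal of 365 to 412 against 757 to 947 on the other slides, and its arrays lay at 1 end of the first principal component (47% of the variance). Dex effects could therefore also be read within slide 3 for GR+MDFIC cells and within slide 1 for GR cells, while no slide held both arms of an MDFIC effect, so that MDFIC and slide are partly confounded. Of the marker accessions drawn up for kidney epithelium, all 4 were well above background on all 12 arrays. Of those for fibroblasts, 1 of the 2 on the arrays was above background on all 12 and the other on none. Markers of other cells were also present, with 2 of 3 for steroidogenic cells, 1 of 2 for leukocytes and 1 of 1 for hepatocytes above background on all 12 arrays. The pairing of these accessions with genes is not in the files, and their part in the results was not tested.

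The transfected genes were looked for first. An accession taken for MDFIC, NM_199072, had a probe at 5.11, 4.89 and 5.29 in GR+MDFIC Dex and 5.65, 5.53 and 5.86 in GR+MDFIC vehicle, against -3.46, -3.20 and -3.27 in GR Dex and -3.30, -3.18 and -3.21 in GR vehicle. This probe was high on every array labelled GR+MDFIC and low on every array labelled GR. Within GR+MDFIC cells it was lower with Dex without overlap, by -0.58 ± 0.12 (log2, SE, limma, adjusted p = 0.0105). The part of that difference in the MDFIC comparisons was not tested. A further probe of NM_199072 lay between -2.48 and -1.79 on all 12 arrays and did not separate the GR+MDFIC from the GR arrays. An accession for GR was not analysed here.

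HSD17B3 transcript was measured on every Dex array and on no vehicle array. Its probe (NM_000197) read -2.75, -2.86 and -2.65 in GR+MDFIC Dex, against -8.48, -8.12 and -8.12 in GR+MDFIC vehicle. In GR Dex it read -2.84, -2.69 and -2.65, against -8.19, -8.06 and -8.22 in GR vehicle. All 6 Dex arrays were well above background and none of the 6 vehicle arrays was, so the Dex and vehicle arrays did not overlap in either kind of cell. As processed signals, before any scaling between arrays, the 3 GR+MDFIC Dex arrays gave 54.2, 52.1 and 65.5 units, against 2.30, 2.72 and 1.38 units in GR+MDFIC vehicle. GR Dex gave 111, 147 and 151 units, against 2.79, 3.42 and 2.93 units in GR vehicle. The unscaled signals of the GR+MDFIC Dex arrays were the lower of the 2 Dex groups, and all 3 came from slide 3, whose signals were lower as a whole. After scaling, the 2 Dex groups overlapped.

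Since the vehicle level of HSD17B3 was not well above background, the change has a lower bound and no measured size. The bound sets the Dex mean against the lowest signal that was well above background on each vehicle array, -6.22, -5.87 and -5.84 for GR+MDFIC vehicle and -5.91, -6.27 and -5.94 for GR vehicle. HSD17B3 was at least 9.33-fold higher with Dex in GR+MDFIC cells and at least 9.94-fold higher with Dex in GR cells. Within slide 3 the bound was 8.50-fold, from 3 Dex arrays and 1 vehicle array of GR+MDFIC cells, and within slide 1 it was 9.15-fold, from 1 Dex array and 3 vehicle arrays of GR cells. The flag is set spot by spot, and some brighter spots lacked it, so the bounds refer to that signal and not to a limit of detection of the probe. The difference of the measured values was 5.49 ± 0.10 in GR+MDFIC cells and 5.43 ± 0.10 in GR cells (log2, SE of the limma model). It rests on vehicle signals below background and has no rank among measured changes. With normexp background correction, which adds 50 to every signal, and quantile scaling together, the HSD17B3 difference was 1.34 in GR+MDFIC cells and 1.36 in GR cells (log2), smaller than the bounds, which hold for the processed signal without that offset. These Dex values led to the choice of the genes and are given without a test.

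**Figure D1:**
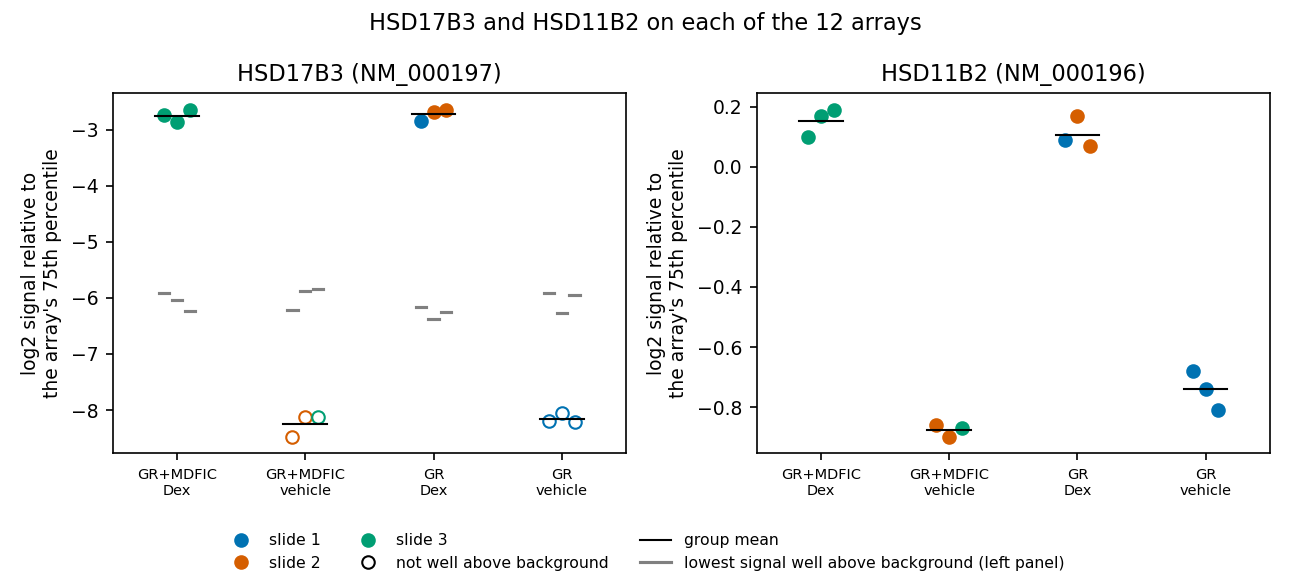
Level of HSD17B3 (left) and HSD11B2 (right) on each of the 12 arrays, as log2 signal relative to the array's 75th percentile, in the 4 groups, coloured by slide. Open points were not well above background, black lines are group means and grey ticks (left) mark the lowest signal well above background on each array. HSD17B3 lay between -2.86 and -2.65 on the 6 Dex arrays and at or under -8.06 on the 6 vehicle arrays, and HSD11B2 lay between 0.07 and 0.19 with Dex and at or under -0.68 with vehicle.

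HSD11B2, the enzyme that inactivates cortisol, was the other member with a clear separation of Dex from vehicle. Its probe (NM_000196) read 0.10, 0.17 and 0.19 in GR+MDFIC Dex, against -0.86, -0.90 and -0.87 in GR+MDFIC vehicle. In GR Dex it read 0.09, 0.17 and 0.07, against -0.68, -0.74 and -0.81 in GR vehicle. Every Dex array was higher than every vehicle array, and the probe was well above background on all 12, so that here the change was measured on both sides. The group means were 0.15 ± 0.05 in GR+MDFIC Dex and -0.88 ± 0.02 in GR+MDFIC vehicle, and 0.11 ± 0.05 in GR Dex and -0.74 ± 0.07 in GR vehicle (SD, n = 3 each).

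The level of HSD11B2 was 2.04-fold higher with Dex in GR+MDFIC cells (log2 1.03 ± 0.05, SE) and 1.80-fold higher with Dex in GR cells (log2 0.85 ± 0.05, SE). Within slide 3 the log2 difference was 1.03 in GR+MDFIC cells, and within slide 1 it was 0.83 in GR cells. Among all 23756 accessions tested, HSD11B2 ranked 923rd from the highest Dex effect in GR+MDFIC cells and 451st in GR cells, so accessions with higher values were many. The kidney epithelium markers moved with Dex at 1 of 4 accessions, NM_003466, which fell in both kinds of cell. Its Dex difference was -0.28 ± 0.04 in GR+MDFIC cells and -0.30 ± 0.04 in GR cells (log2, SE, limma, adjusted p = 0.00154 and 0.00141). Of all accessions, 6.9% passed as lower in GR+MDFIC cells and 2.73% in GR cells. The 4 kidney markers, each relative to the 75th percentile, summed to 85.2 to 91.9 in GR+MDFIC Dex and 85.9 to 90.7 in GR+MDFIC vehicle. In GR Dex they summed to 89.0 to 97.1 and in GR vehicle to 89.8 to 95.5, so the sums overlapped. Sums of the 2 steroidogenic markers were lower with Dex without overlap. They were 0.17 to 0.197 against 0.208 to 0.239 in GR+MDFIC cells and 0.214 to 0.219 against 0.221 to 0.239 in GR cells. As single accessions both overlapped in GR cells and neither passed there (limma, adjusted p = 0.703 and 0.949). Of all accessions, 32.1% did not overlap for Dex in GR+MDFIC cells and 26.2% in GR cells. The 1 leukocyte marker summed was also lower without overlap, at 0.34 to 0.369 against 0.399 to 0.441 and at 0.295 to 0.329 against 0.333 to 0.394. That marker passed in neither GR+MDFIC nor GR cells (limma, adjusted p = 0.0918 and 0.178). Its further probe had a higher mean with Dex in GR+MDFIC cells, -2.42 against -2.88. Sums for fibroblasts and hepatocytes overlapped. The part of these markers in the HSD11B2 difference was not tested. In order of HSD11B2 level, GR+MDFIC Dex and GR Dex came first and overlapped, GR vehicle followed, and GR+MDFIC vehicle was lowest.

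HSD11B1, the enzyme that makes cortisol from cortisone, was not well above background on any of the 12 arrays with its probe (NM_181755). It read -8.15, -8.25 and -7.55 in GR+MDFIC Dex and -8.41, -7.85 and -7.11 in GR+MDFIC vehicle, and -8.32, -6.90 and -7.39 in GR Dex and -8.13, -8.49 and -6.89 in GR vehicle. These values have no order and HSD11B1 was not tested.

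Among the enzymes of estrogens, HSD17B1 reduces estrone to estradiol and is known from ovary and placenta. The probe that stood for it (NM_000413) read -1.48, -1.41 and -1.48 in GR+MDFIC Dex, against -1.61, -1.51 and -1.65 in GR+MDFIC vehicle, and these groups did not overlap. In GR Dex it read -1.46, -1.37 and -1.41, against -1.43, -1.45 and -1.57 in GR vehicle, and these overlapped. The difference was 0.14 ± 0.06 in GR+MDFIC cells and 0.07 ± 0.06 in GR cells (log2, SE). The further HSD17B1 probe read -1.70, -1.60 and -1.89 in GR+MDFIC Dex and -1.82, -1.67 and -1.75 in GR+MDFIC vehicle, which overlapped, so the 2 probes did not give the same separation. Its means were -1.81 ± 0.10 in GR Dex and -1.93 ± 0.18 in GR vehicle (SD, n = 3 each).

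HSD17B2 oxidises estradiol and testosterone to their keto forms. Its probe (NM_002153) read -0.71, -0.62 and -0.62 in GR+MDFIC Dex, against -0.81, -0.82 and -0.80 in GR+MDFIC vehicle. In GR Dex it read -0.55, -0.82 and -0.59, against -0.67, -0.59 and -0.74 in GR vehicle. The GR+MDFIC groups did not overlap, with all Dex arrays higher, while GR Dex replicate 2 was lower than every GR vehicle array replicate 1 was higher than all of them and replicate 3 was level with the highest. The difference was 0.16 ± 0.07 in GR+MDFIC cells and 0.01 ± 0.07 in GR cells (log2, SE).

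HSD17B4, the multifunctional protein of peroxisomal fatty acid oxidation, also oxidises estradiol. Its probe (NM_000414) read 2.21, 2.30 and 2.38 in GR+MDFIC Dex and 2.43, 2.33 and 2.27 in GR+MDFIC vehicle, which overlapped. It read 2.25, 2.33 and 2.47 in GR Dex and 2.16, 2.25 and 2.22 in GR vehicle, where the lowest Dex array only just exceeded the highest vehicle array. The difference was -0.05 ± 0.07 in GR+MDFIC cells and 0.14 ± 0.07 in GR cells (log2, SE), and within slide 1 the GR value was 0.04.

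HSD17B6 oxidises androstanediol and related androgens. It read -3.95, -3.49 and -3.51 in GR+MDFIC Dex and -3.82, -3.68 and -3.81 in GR+MDFIC vehicle (NM_003725). It read -3.60, -3.69 and -3.74 in GR Dex and -3.78, -3.70 and -3.74 in GR vehicle. The groups overlapped in both kinds of cell, and GR+MDFIC Dex replicate 1 was the lowest of the 12 arrays while the other 2 of its group were the highest. The difference was 0.12 ± 0.11 in GR+MDFIC cells and 0.06 ± 0.11 in GR cells (log2, SE).

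HSD17B7, which takes part in cholesterol synthesis and also reduces estrone, was the member with lower values under Dex in GR+MDFIC cells. The probe that stood for it (NM_016371) read 0.53, 0.41 and 0.38 in GR+MDFIC Dex, against 0.69, 0.75 and 0.56 in GR+MDFIC vehicle. In GR Dex it read 0.50, 0.51 and 0.58, against 0.56, 0.61 and 0.59 in GR vehicle. The GR+MDFIC groups did not overlap, and the GR groups did. The difference was -0.23 ± 0.06 in GR+MDFIC cells and -0.06 ± 0.06 in GR cells (log2, SE). Within slide 3 it was -0.12, with the single vehicle array of that slide the lowest of its group. The further HSD17B7 probe read 0.37, 0.38 and 0.32 in GR+MDFIC Dex and 0.44, 0.44 and 0.50 in GR+MDFIC vehicle, again without overlap, and its difference was -0.11 in GR+MDFIC cells and -0.09 in GR cells.

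**Figure D2:**
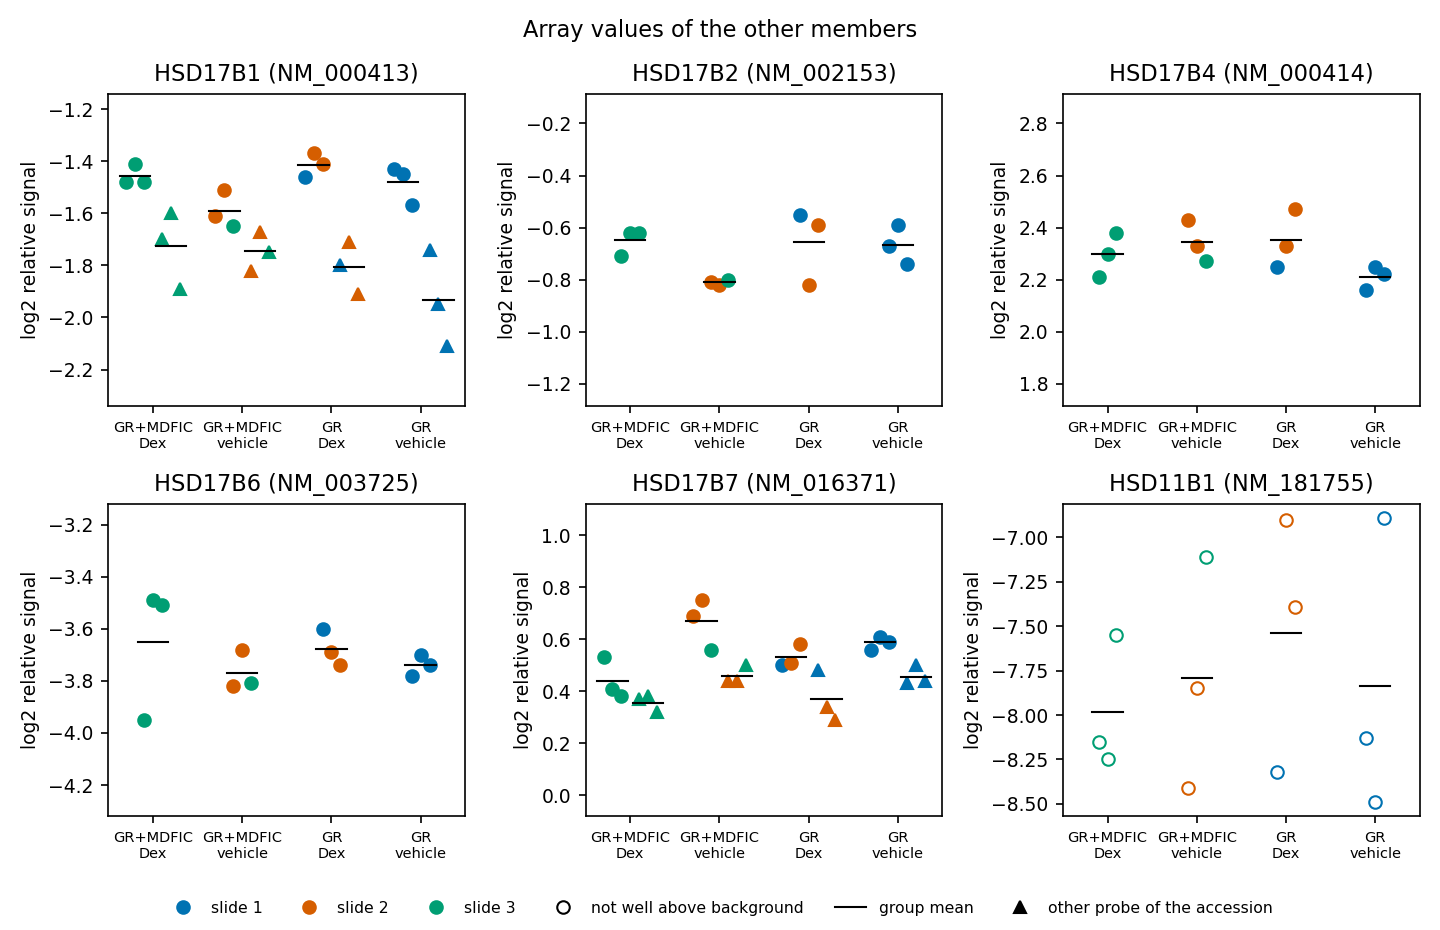
Level of the other 6 members on each of the 12 arrays, as log2 signal relative to the array's 75th percentile, in the 4 groups, coloured by slide. Triangles are the further probes of HSD17B1 and HSD17B7, open points were not well above background and lines are group means. HSD17B1, HSD17B2, HSD17B4, HSD17B6 and HSD17B7 are drawn over an equal log2 span, and HSD11B1 was below background on all 12 arrays.

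Of the 7 members tested, 3 passed an adjusted p of 0.05 for Dex in GR+MDFIC cells (HSD17B3 and HSD11B2 higher, HSD17B7 lower), where 13.5% of all accessions passed, 6.63% higher and 6.9% lower. For Dex in GR cells 2 of 7 passed (HSD17B3 and HSD11B2, both higher), where 7.1% of all accessions passed, 4.37% higher and 2.73% lower. Groups did not overlap for 5 of the 7 in GR+MDFIC cells, against 32.1% of all accessions, and for 3 of the 7 in GR cells, against 26.2%. These counts include the response that led to the choice of the genes, and nothing is read from them. The members that passed the filter had a median log2 difference of 0.14 in GR+MDFIC cells (all accessions -0.01) and 0.07 in GR cells (all accessions 0.01). HSD17B3 passed the filter only through its Dex groups. HSD17B7 was no longer past the threshold in GR+MDFIC cells with slide as a block (-0.12), nor without GR vehicle replicate 3 (-0.23), GR+MDFIC vehicle replicate 1 (-0.22) or 2 (-0.19), or GR+MDFIC Dex replicate 2 (-0.21) or 3 (-0.20). HSD17B6 passed in GR+MDFIC cells without GR+MDFIC Dex replicate 1, at 0.27.

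**Figure D3:**
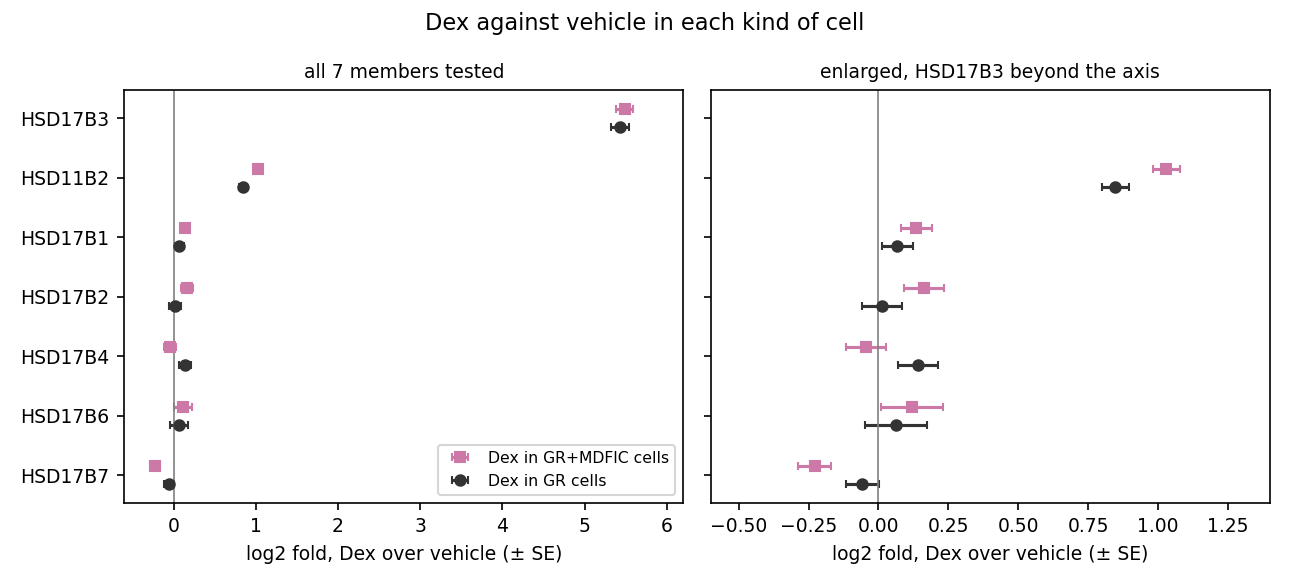
Dex effect on the 7 tested members in GR+MDFIC cells (squares) and GR cells (circles), as the log2 difference of Dex over vehicle with its SE, on the full scale (left) and enlarged (right). HSD17B3, at 5.49 and 5.43, rests on vehicle signals below background, HSD11B2 stood at 1.03 and 0.85, and the other 5 members lay between -0.23 and 0.16.

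**Figure D4:**
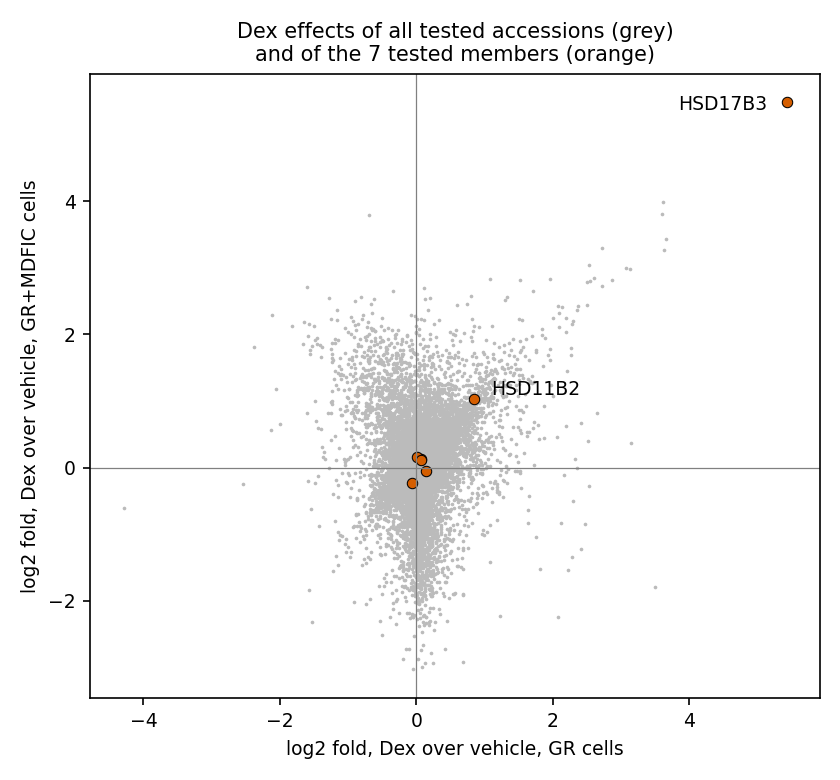
Dex effect in GR+MDFIC cells (vertical axis) against that in GR cells (horizontal axis), each as log2 Dex over vehicle, for all 23756 tested accessions (grey) and the 7 tested members (orange). HSD17B3, at 5.49 and 5.43, rests on vehicle signals below background and was the value that chose the genes, HSD11B2 lay at 1.03 and 0.85, and the other 5 members lay near 0 on both axes. The 2 axes share no arrays.

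The transcripts most like HSD17B3 across the 12 arrays were named by Pearson correlation with its probe, among 16144 other tested accessions that start with NM. They were NM_001216 (r = 0.9975), NM_016084 (r = 0.9975), NM_024701 (r = 0.9974), NM_005953 (r = 0.9966) and NM_002686 (r = 0.9964). The 12 points fall into a Dex and a vehicle cluster, 6 of the 12 HSD17B3 values are below background, and these r are a description only. All 5 were well above background on all 12 arrays, unlike HSD17B3. Their log2 Dex difference in GR+MDFIC cells was 2.44 for NM_001216, 3.99 for NM_016084, 0.83 for NM_024701, 1.67 for NM_005953 and 2.84 for NM_002686. In GR cells it was 2.51 for NM_001216, 3.62 for NM_016084, 0.90 for NM_024701, 1.59 for NM_005953 and 2.60 for NM_002686. A high r thus went with Dex differences of very unequal size. These values are of the probe that stood for each accession. A further probe of NM_024701 read -3.12, -3.20 and -3.31 in GR Dex and -2.77, -3.84 and -3.70 in GR vehicle, which overlapped. In GR+MDFIC cells that probe was higher with Dex without overlap. The further probes of NM_016084 and NM_005953 were higher with Dex without overlap in both kinds of cell. With normexp background correction and quantile scaling together, the ranks of the 5 became 17, 8, 61, 3 and 24 in the order named. Within the family, HSD11B2 had r = 0.991 with HSD17B3 and was 34th of the NM accessions, and HSD17B7 had r = -0.723. HSD17B1 had r = 0.626, HSD17B2 0.462, HSD17B6 0.364 and HSD17B4 0.264.

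The MDFIC comparisons were not used to choose the genes and were tested. No member passed in either treatment. With vehicle, 0 of 7 members passed for GR+MDFIC over GR (limma), against 0.846% of all accessions. With Dex, 0 of 7 passed (limma), against 5.6% of all accessions. At an unadjusted p of 0.05 (limma) HSD11B2 alone passed with vehicle and none with Dex. The share of all accessions at an unadjusted p of 0.05 is not given here, so nothing is read from that count. The shares at the adjusted threshold rest on few arrays. The 1331 accessions behind the Dex share became 95 without GR Dex replicate 3 and 3119 without GR+MDFIC vehicle replicate 3, and the 201 behind the vehicle share became 572 without GR+MDFIC vehicle replicate 3 and 88 without replicate 3 of GR vehicle. The members' count stayed 0 with each array left out. Groups did not overlap for 3 of the 7 with vehicle, against 22.2% of all accessions, and for 0 of the 7 with Dex, against 32.1%.

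HSD17B3 on Dex arrays, where it was measured in both kinds of cell, averaged -2.75 ± 0.10 in GR+MDFIC Dex and -2.73 ± 0.11 in GR Dex (SD, n = 3 each). The difference was -0.03 with a 95% interval of -0.26 to 0.21 (log2, limma, Benjamini-Hochberg adjusted p = 0.902). With 3 arrays a group, a difference of a size within that interval is not excluded, and the smallest detectable difference was not computed. On vehicle arrays both groups were below background, and the difference of -0.09 (limma, adjusted p = 0.719) is not a measured one.

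For HSD11B2 the vehicle and the Dex arrays gave differences of opposite sign, neither past the threshold. With vehicle its GR+MDFIC minus GR difference was -0.13, with a 95% interval of -0.24 to -0.03 (log2, limma, Benjamini-Hochberg adjusted p = 0.207). The 3 GR+MDFIC vehicle arrays were lower than the 3 GR vehicle arrays without overlap, as for 10.2% of all accessions. With Dex the difference was 0.05, with a 95% interval of -0.06 to 0.16 (log2, limma, Benjamini-Hochberg adjusted p = 0.595), and the groups overlapped.

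The other members gave like results. With vehicle, HSD17B2 was lower without overlap in GR+MDFIC cells (-0.14, 95% interval -0.30 to 0.02, limma, adjusted p = 0.335). HSD17B4 was higher without overlap (0.13, 95% interval -0.02 to 0.29, limma, adjusted p = 0.359), as for 12% of all accessions. HSD17B1 differed by -0.11, HSD17B7 by 0.08 and HSD17B6 by -0.03, with limma adjusted p-values of 0.341, 0.504 and 0.917 in that order. With Dex, the differences of HSD17B1, HSD17B2, HSD17B4, HSD17B6 and HSD17B7 lay between -0.09 and 0.03, with overlap in each case, and the limma adjusted p-values ran from 0.391 to 0.966. HSD17B6 had the widest intervals of these, -0.28 to 0.22 with vehicle and -0.22 to 0.28 with Dex.

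Whether the Dex effect itself differed between the kinds of cell was tested as the interaction. No member passed it (0 of 7, limma), against 0.0589% of all accessions. That share is 14 accessions, which became 2 when GR+MDFIC vehicle replicate 1 was left out and 1816 when replicate 3 of that group was. No member was among them in either case. At an unadjusted p of 0.05 (limma) HSD11B2 alone passed. The share of all accessions at an unadjusted p of 0.05 is not given here, so nothing is read from that count. The Dex effect on HSD11B2 in GR+MDFIC cells minus that in GR cells was 0.18, with a 95% interval of 0.03 to 0.33 (log2, limma, Benjamini-Hochberg adjusted p = 0.499). For HSD17B3 it was 0.06, with a 95% interval of -0.27 to 0.39 (limma, adjusted p = 0.910), which includes the vehicle signals below background. HSD17B7 gave -0.17 (95% interval -0.36 to 0.02, limma, adjusted p = 0.527) and HSD17B4 -0.19 (95% interval -0.41 to 0.04, limma, adjusted p = 0.556). HSD17B2 gave 0.15, HSD17B1 0.07 and HSD17B6 0.06, with limma adjusted p-values of 0.625, 0.774 and 0.916 in that order. The larger Dex effects of HSD17B7, HSD17B2 and HSD11B2 in GR+MDFIC cells are therefore not shown to differ from those in GR cells.

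**Figure D5:**
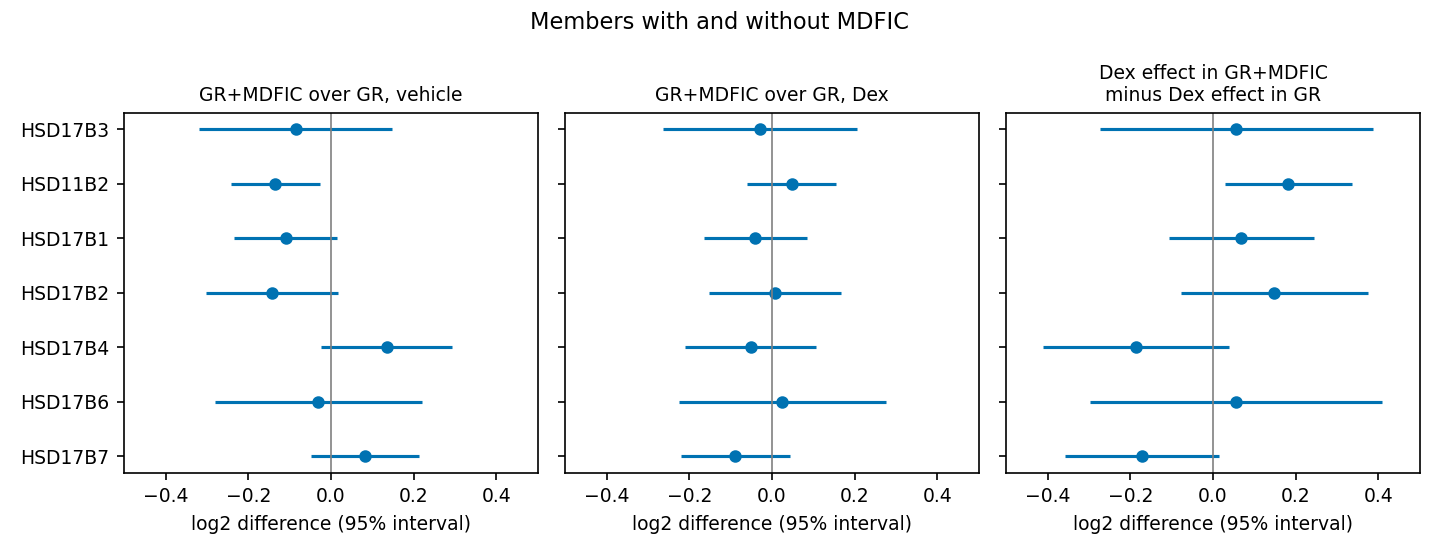
MDFIC effect on the 7 tested members, as the log2 difference of GR+MDFIC over GR with vehicle (left) and with Dex (middle), and the Dex effect in GR+MDFIC cells minus that in GR cells (right), each with its 95% interval. The interval of HSD11B2 excludes 0 on the left and on the right, and none passed after adjustment over all accessions.

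Wider lists of steroid genes were drawn up by accession, and their members are given by accession since the files hold no gene names. Of 18 accessions for other hydroxysteroid dehydrogenases and relatives, 16 were on the arrays and 14 were tested. None passed for Dex in GR+MDFIC cells, against 13.5% of all accessions, nor in GR cells, against 7.1%. Their median log2 difference was 0.02 in GR+MDFIC cells (all accessions -0.01) and 0.10 in GR cells (all accessions 0.01). For MDFIC in vehicle and the interaction none passed, against 0.846% and 0.0589% of all accessions. For MDFIC in Dex 1 of the 14 was higher, where 5.6% of all accessions passed in either direction. That accession, NM_016246, read -2.60, -2.37 and -2.69 in GR+MDFIC Dex, against -3.44, -3.40 and -3.60 in GR Dex. The difference was 0.92 ± 0.21 (log2, SE, limma, adjusted p = 0.0403). On vehicle arrays it read -2.68 on slide 3 but -3.40 and -3.66 on slide 2 in GR+MDFIC vehicle, against -3.74, -3.86 and -3.63 in GR vehicle. The 4 highest values of NM_016246 were thus the 4 arrays of slide 3, and with slide as a block the difference was 0.09 (limma, adjusted p = 0.954). The call of NM_016246 was also lost without any 1 of the 3 GR+MDFIC Dex arrays or of the 6 GR arrays (0.83 to 0.99, limma, adjusted p up to 0.11).

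Of 19 accessions for steroid synthesis, reduction and conjugation, 18 were on the arrays and 15 were tested. For Dex in GR+MDFIC cells 1 rose and 1 fell, where 6.63% of all accessions passed as higher and 6.9% as lower. For Dex in GR cells 1 rose and none fell, where 4.37% passed as higher and 2.73% as lower. The median log2 difference was 0.09 in GR+MDFIC cells (all accessions -0.01) and 0.10 in GR cells (all accessions 0.01). Nothing is read from these counts. NM_001047 rose in both kinds of cell. It read -2.66, -2.73 and -2.65 in GR+MDFIC Dex, against -3.31, -3.57 and -3.42 in GR+MDFIC vehicle, and -2.88, -2.69 and -2.68 in GR Dex, against -3.41, -3.46 and -3.53 in GR vehicle. Its Dex difference was 0.75 ± 0.08 in GR+MDFIC cells (log2, SE, limma, adjusted p = 0.000221) and 0.72 ± 0.08 in GR cells (limma, adjusted p = 0.000405). NM_000102 fell in GR+MDFIC cells, with -3.04, -2.85 and -3.14 in GR+MDFIC Dex against -2.75, -2.75 and -2.68 in GR+MDFIC vehicle. The difference of NM_000102 was -0.28 ± 0.08 (log2, SE, limma, adjusted p = 0.0394), and it was -0.33 with slide as a block, where it no longer passed (limma, adjusted p = 0.234). It passed without GR vehicle replicate 1 (-0.28) or GR+MDFIC Dex replicate 2 (-0.37) and did not pass without any 1 of the other 10 arrays (-0.30 to -0.22, limma, adjusted p up to 0.122). Of 6 accessions for steroid receptors, 5 were on the arrays, 2 were tested and none passed in any comparison. None of the 15 or the 2 passed for MDFIC in either treatment or for the interaction. Of all accessions, 0.846% passed with vehicle, 5.6% with Dex and 0.0589% for the interaction.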

How the data were processed

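Total RNA (500 ng) of each sample gave Cy3-labelled RNA for 1 Agilent array with human probes, read in 1 colour, per the labels. The deposited values are linear intensities, the processed signal of each spot after the background subtraction and spatial detrending of Agilent Feature Extraction, per the file headers. The version is 12 per the submitters' processing notes, and 12.0.0.7 (slides 1 and 2) or 12.0.3.1 (slide 3) per the file headers. The deposited flags, other values of 0 or 1, mark spots that are well above background, outliers or saturated, per the file headers. The deposited table of the whole series held the same intensities (largest difference 0).

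From these deposited signals, log2 was taken, and each array was set to 0 at the 75th percentile of its spots other than controls. Outlier spots were set to missing, and no spot of a member was an outlier or saturated. Of 41000 probes, 30177 were well above background on all 3 arrays of a group, with at least 2 unflagged arrays in each. The brightest such probe stood for each of 23756 accessions. One limma model (3.58.1, R 4.3.3) with 4 group means was fitted to the 12 arrays, with 8 residual degrees of freedom. Tests were two-sided, with Benjamini-Hochberg adjustment over all accessions and a threshold of 0.05. Groups came from the labels. The fit was tested on simulated data.

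The members and the wider lists were chosen with earlier results of these data known. Named besides the members were the 5 NM accessions most correlated with HSD17B3, list accessions past the threshold (up to 3 a list for Dex) and that taken for MDFIC. An accession for GR was drawn up but not analysed. Levels of different probes were not compared, and no sequence was used here. Alternatives covered background correction, scaling, filters, probe choice, slide and replicate blocks, the samples fitted, the variance model, the threshold and each array left out.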

Additional observations from a re-analysis of the deposited data

How the results depend on the processing

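HSD17B3 and HSD11B2 had a higher Dex level in both kinds of cell under every alternative that could give a value. For HSD17B3, which chose the genes and was below background with vehicle, this is a description and no support. HSD17B3 fails the filter that asks for all 12 arrays above background, which left 1 member past the threshold for Dex in GR cells. Normexp, which adds 50 to every signal, with quantile scaling gave 1.34 for HSD17B3 and 0.73 for HSD11B2 in GR+MDFIC cells, and 1.36 for HSD17B3 and 0.65 for HSD11B2 in GR cells (log2 Dex over vehicle). Leaving out each array in turn gave 5.37 to 5.55 for HSD17B3 and 1.01 to 1.06 for HSD11B2 in GR+MDFIC cells with 2 to 4 members past the threshold, and 5.39 to 5.49 and 0.81 to 0.88 in GR cells with 2 members each time. HSD17B7 was not past it for Dex in GR+MDFIC cells in 11 of 25 alternatives (-0.28 to -0.11). No member passed for MDFIC or the interaction in any alternative that could give a value (0 with each array left out). The list accession NM_016246 passed in 11 of 24 alternatives and NM_000102 in 8 of 24, while NM_001047 passed in all.

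Deviations of same-numbered replicates from their group means had correlations of -0.24 to 0.14 (18 pairs, 3 over 0.1). With 3 arrays a group and most pairs on different slides, this cannot show whether the numbers pair the samples. The main model did not pair them. With the replicate number as a block, the Dex difference was 5.49 for HSD17B3 and 1.03 for HSD11B2 in GR+MDFIC cells and 5.43 and 0.85 in GR cells, and the members past the threshold stayed 3 and 2 in number, with 0 for MDFIC in either treatment and the interaction. This block left 112 accessions past the threshold for MDFIC in vehicle against 201 without it, and 5 against 14 for the interaction.

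Counts over all accessions depended on single arrays and on the slide. Leaving out each array in turn gave 1820 to 6311 for Dex in GR+MDFIC cells, 1072 to 1765 for Dex in GR cells, 88 to 572 for MDFIC in vehicle, 95 to 3119 for MDFIC in Dex and 2 to 1816 for the interaction, and the highest of each came without GR+MDFIC vehicle replicate 3. With slide as a fixed block (6 residual degrees of freedom) 806 accessions passed for Dex in GR+MDFIC cells against 3216 without it, 846 against 1687 for Dex in GR cells, 70 against 201 for MDFIC in vehicle, 49 against 1331 for MDFIC in Dex and 20 against 14 for the interaction. The cause was not tested. Leaving out slide 3 (chosen after seeing the data) changed no member's call for MDFIC in vehicle. That slide holds all GR+MDFIC Dex arrays, so MDFIC in Dex and the interaction could not be fitted without it. The further probes of HSD17B1 and HSD17B7 changed neither member's call for MDFIC or the interaction. Signals below background limit HSD17B3 with vehicle and HSD11B1 throughout.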

Other observations

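Of the 23756 tested accessions, 22 were well above background on all 6 Dex arrays and on none of the 6 vehicle arrays, HSD17B3 among them, and 0 showed the reverse. The filter on dim probes keeps such accessions through their Dex groups, and both kinds of cell entered the count. Beside HSD17B3, whose Dex means were -2.75 in GR+MDFIC cells and -2.73 in GR cells, NM_147197 had Dex means of -3.54 and -3.41 and vehicle means of -7.35 and -7.02 in the same order of cells. NM_199162 had Dex means of -3.52 and -3.48 and vehicle means of -6.95 and -7.15. NM_000759 had Dex means of -4.13 and -4.44 and vehicle means of -7.40 and -8.08. These 3 were chosen after their values were seen. All means are log2 means over 3 arrays a group, and the vehicle means are not well above background, so the differences have neither a measured size nor an order.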
